A study of Mus musculus with 12 samples.

Results

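The genes described here are the translation initiation and elongation factors of the mouse, taken as the protein-coding genes on chromosomes 1 to 19 whose symbol begins with Eif or Eef. The rule uses names only and found 69 genes among 20665 protein-coding genes on these chromosomes. RNA fragments bound by an antibody against 5-methylcytosine (m5C) were compared with input RNA from the hippocampus of wild-type female C57BL/6 mice. The young group was 3 months old and the aged group, which had aged naturally, was 18 months old. There were 3 immunoprecipitated libraries per age, each with its own input and its own list of peaks, which makes 12 libraries and 6 lists. The labels name no treatment or transgene and do not say whether the libraries of an age came from separate animals, so a p-value here measures the spread among libraries only, and that spread may be technical.

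Translation begins when initiation factors load the initiator tRNA and the small ribosomal subunit onto the capped end of an mRNA and move them to the start codon. Elongation factors then bring each charged tRNA to the ribosome and shift it along the message. Both steps are regulated in the hippocampus, where local protein synthesis near synapses is needed for lasting synaptic change, mainly through phosphorylation of eIF2 and eEF2 and through the proteins that bind eIF4E. m5C is a methyl mark on cytosine, found in tRNA and ribosomal RNA and at some sites in mRNA. A peak in the lists is a stretch of transcript where antibody-bound fragments exceeded input, and it does not resolve the modified base.

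The young lists held 8549 to 10392 peaks and the aged lists 14008 to 15189, and the reads behind them are unknown. The score given with each peak is the authors' own value. Its lowest value was 50, and 274 to 684 peaks per list stood at exactly 3100, where values piled up, with 121 peaks over all lists above it. The median score of a whole list was 117 to 137 in young and 142 to 144 in aged lists. Scores are printed to place a peak within its own list, and scores of young and aged lists that stand side by side were not tested against each other. Of 8 markers of hippocampal excitatory neurons, 7 had a peak in every list, and their summed peaks were 14 to 17 in young and 18 to 25 in aged lists. The 6 markers of inhibitory neurons summed to 0 peaks in each young list and 3 in each aged list, with Pvalb and Vip at 0 throughout. The 6 astrocyte markers summed to 5 to 8 and 12 to 15 peaks, the 6 oligodendrocyte markers to 4 to 6 and 6 to 8 (Cnp at 0), the 6 microglial markers to 1 to 2 and 1 to 3 (Csf1r, P2ry12, Tmem119 and Trem2 at 0), and the 6 endothelial markers to 3 to 4 and 3 to 5 (Cldn5 and Tek at 0). Of 6 choroid plexus markers, Ttr alone had peaks, 3 of them, in young replicate 3. The part of these differences in the results below was not tested, and a marker without a peak may still be expressed. In whole tissue, peak counts cannot tell apart the number of cells of a type, RNA per cell, list length and the mark itself.

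Most translation factor genes carried m5C peaks, and more of them did so in aged than in young libraries, as was the case for genes at large. A peak was present in at least 1 list in 51 of the 69 genes (73.9%), against 43.6% of all protein-coding genes. Translation factor genes with a peak numbered 36, 31 and 37 in the young lists and 43, 40 and 44 in the aged lists, so every aged list was above every young one. The means were 34.7 ± 3.21 (SD, n = 3) and 42.3 ± 2.08 (SD, n = 3), with an exact permutation p of 0.1, two-sided, the smallest that 3 against 3 allows. The aged to young ratio was 1.22 for these genes and 1.26 for all genes.

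The number of peaks inside these genes separated the ages as well. It was 73, 70 and 77 in young and 103, 98 and 106 in aged lists, with means of 73.3 ± 3.51 and 102 ± 4.04 (SD, n = 3 each, exact permutation p = 0.1). These peaks covered 24444 ± 3303 bases in young and 34356 ± 4388 bases in aged lists (exact permutation p = 0.1). The ratio of peak numbers was 1.40, against 1.51 for whole lists. As a share of all peaks in a list, translation factors held 0.766% ± 0.0457 in young and 0.706% ± 0.0323 in aged lists, and the groups overlapped (exact permutation p = 0.3). Among peaks at or above the median score of their list the share was 1.08% in young and 0.911% in aged lists, and among those with scores of at least 100 it was 0.996% and 0.833%, each with the smallest p the design allows (exact permutation p = 0.1). With every list limited to its 8549 highest-scoring peaks the direction of the gene number turned, to 32.7 in young and 31.3 in aged lists (exact permutation p = 0.4), and the share was 0.0429 percentage points higher in aged lists (exact permutation p = 0.2). The plot of values by list shows the counts as deposited.

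**Figure D1:**
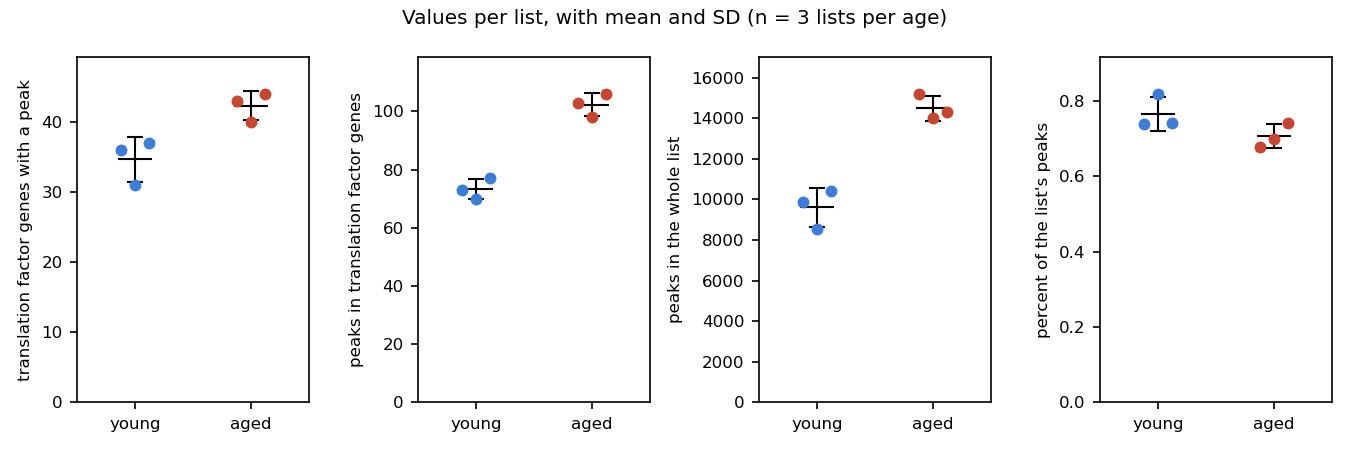
Each point is 1 peak list, and the black lines give mean and SD for 3 lists per age; the panels show the number of translation factor genes with a peak, the peaks inside them, the peaks in the whole list, and the percent of the list's peaks that lie in these genes. The first 3 quantities are separated by age, and the percent, 0.678 to 0.742 in aged and 0.738 to 0.819 in young lists, is not.

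Within each list, peaks in translation factor genes ranked above the middle by score. Their median percentile was 70.3, 71.6 and 71.0 in the young lists and 67.5, 69.5 and 74.1 in the aged lists, where 50 is the middle of a list. Of these peaks, 12.7% ± 1.16 in young and 13.3% ± 2.48 in aged lists (SD, n = 3 each) lay in the first 1000 bases of the gene span (exact permutation p = 0.9). For peaks in all genes this share was 8.34% ± 0.298 and 9.36% ± 0.598. In the last 1000 bases the shares were 10.9% ± 2.01 and 11.4% ± 1.21 (exact permutation p = 0.8), beside 8.83% and 8.33% for all genes. They were 8.32% and 11.6% among peaks at or above the median score of their list, and 8.78% and 10.9% at scores of at least 100 (exact permutation p = 0.1 each). With lists of equal length they were 11.2% and 11.5% (exact permutation p = 0.9). The shares for all genes under these settings were not computed. Translation factor genes with a peak were shorter, with a median span of 17.4 kb against 31.3 kb, so a fixed window takes up more of them.

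Some genes had a peak in every list and others in only some lists. A peak was found in all 6 lists in 28 genes, which is 54.9% of the 51 with a peak, beside 31.6% among all genes with a peak. A single stretch listed in all 6 lists was present in 24 genes, and the share of all genes with such a stretch was not computed. Only in aged lists, meaning in 3 of 3 aged and 0 of 3 young, were Eif2ak3, Eif4a2 and Eif5a, 5.88% of the 51, beside 4.26% of all genes with a peak. No gene had the opposite pattern, beside 0.743% of all genes. The numbers of peaks per gene gave more genes whose ages did not overlap: 7 had more peaks in each aged list than in any young list (13.7%, beside 12% of all genes), and none had more in each young list, beside 0.887%. The 7 were Eif2ak3, Eif3c, Eif4a2, Eif4b, Eif4e, Eif4g1 and Eif5a. Of these, Eif3c, Eif4b, Eif4e and Eif4g1 also had a peak in all 6 lists. Limiting the lists to equal length brought both the aged-only genes and these 7 to 0. The grid of peak counts gives every gene.

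**Figure D2:**
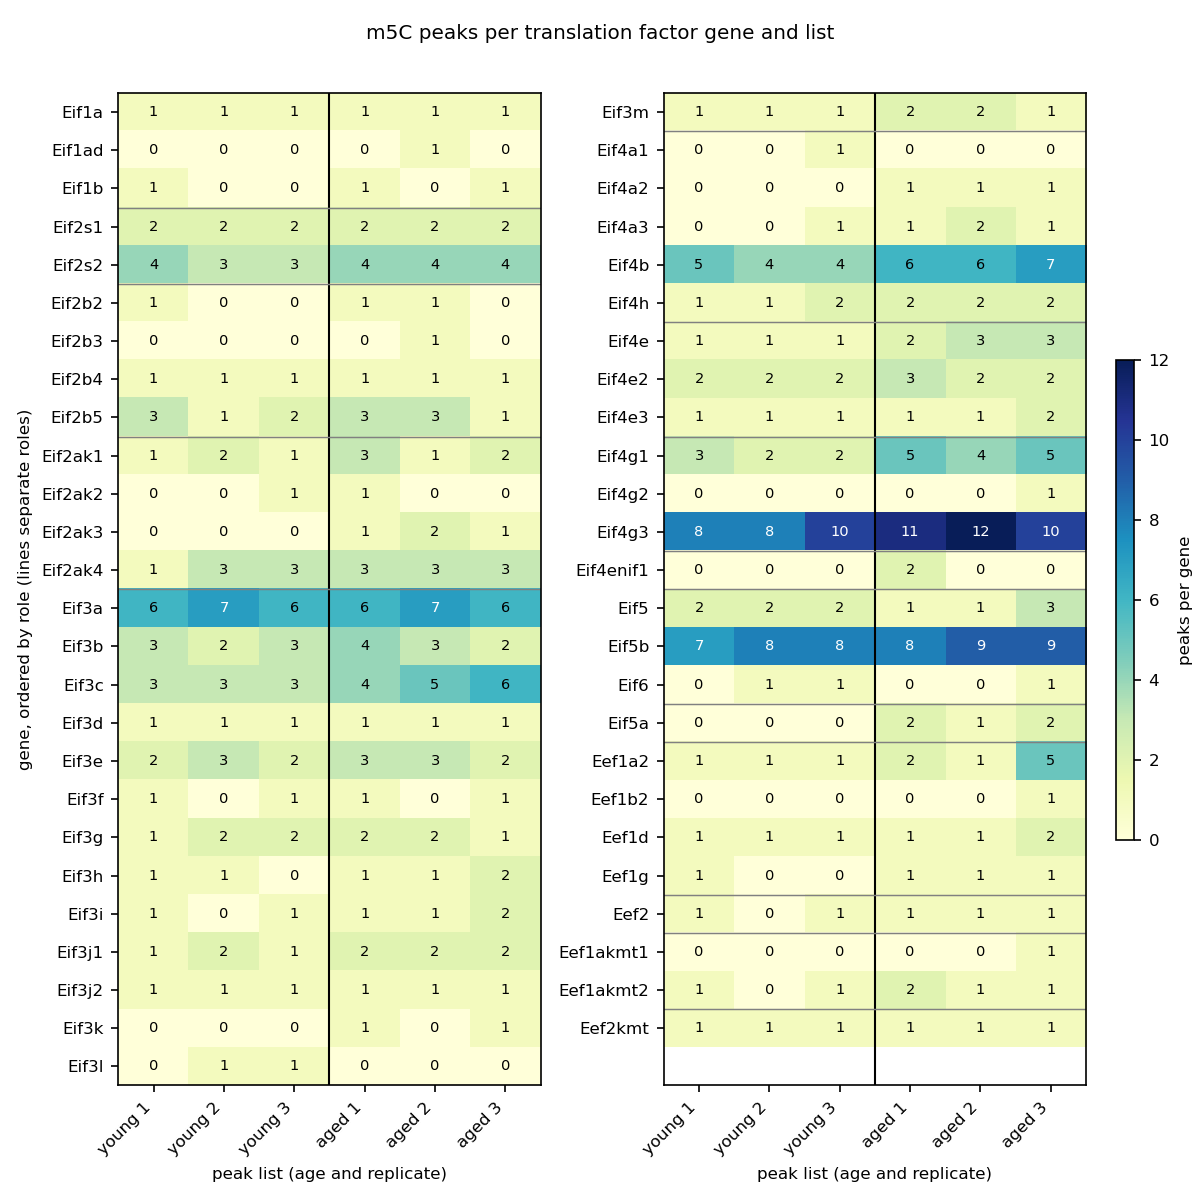
Rows are the 51 translation factor genes with a peak, ordered by role, columns are the 6 lists, and each cell gives the number of peaks in the gene (colour scale from 0 to 12 peaks). Eif4g3 with 8 to 12 peaks, Eif5b with 7 to 9 and Eif3a with 6 or 7 stand out in every list, and the rows of Eif5a, Eif4a2 and Eif2ak3 are at 0 in the 3 young lists.

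Factors of start codon recognition carried few peaks, 2, 1 and 1 in young and 2 in each aged list over 4 genes. Eif1, which keeps the scanning ribosome open until the start codon is met, had none. Eif1a had 1 peak in every list. Eif1b had 1 peak in young replicate 1 and in aged replicates 1 and 3, at different places: the young peak lay at the 3′ end of the gene and the aged ones at its start, on chromosome 9 from 120492606 to 120492841. Eif1ad had 1 peak, in aged replicate 2.

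Among the factors that deliver the initiator tRNA, the eIF2 subunit genes on these chromosomes had peaks in every list. Eif2s1, the alpha subunit that stress kinases phosphorylate, had 2 peaks in each of the 6 lists. Eif2s2, the beta subunit, had 4, 3 and 3 peaks in young and 4 in each aged list. The additional peak lay on chromosome 2 from 154878470 to 154878564 and was listed in young replicate 1 and in all aged lists. No list had a peak in Eif2a or Eif2d, which can bring initiator tRNA to the ribosome by other routes.

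The exchange factor eIF2B, which recharges eIF2 with GTP, had peaks in 4 of its 5 subunit genes. Eif2b4 had 1 peak in each list, on chromosome 5 from 31192582 to 31193139, a merged stretch that takes in the start of the gene. Eif2b5, the catalytic subunit, had 3, 1 and 2 peaks in young and 3, 3 and 1 in aged lists, yet no single stretch was listed in all 6. The stretch from 20505199 to 20505340 on chromosome 16 was listed in young replicates 1 and 3 and aged replicates 1 and 2, and the one from 20504645 to 20504790 in the remaining young and aged replicates. Eif2b2 had 1 peak in 1 young and 2 aged lists, Eif2b3 in 1 aged list, and Eif2b1 had none.

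The 4 kinases that phosphorylate eIF2 alpha under stress all carried peaks, in unequal ways. Eif2ak3, which encodes the endoplasmic reticulum stress kinase PERK, had 0 peaks in each young list and 1, 2 and 1 in the aged lists. Its peaks were weak and scattered. The best scores were 66.8, 76.0 and 96.2, and no stretch was listed in all 3 aged lists: the one shared by aged replicates 2 and 3 lay on chromosome 6 from 70890065 to 70890214. With lists of equal length Eif2ak3 had no peak at either age. Eif2ak4, the amino acid sensor GCN2, had 1, 3 and 3 peaks in young and 3 in each aged list. Eif2ak1, the haem-regulated kinase, had 1 or 2 peaks in young and 1 to 3 in aged lists, always including a stretch on chromosome 5 from 143899014 to 143899247. Eif2ak2, the double-stranded RNA sensor PKR, had 1 peak in 1 young and 1 aged list.

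The scaffold complex eIF3 holds the small subunit. All 14 of its genes on these chromosomes had a peak, 9 of them in every list, and their peaks summed to 22, 24 and 23 in young and 29, 28 and 28 in aged lists. Eif3a, the largest subunit, had 6, 7 and 6 peaks in young and likewise 6, 7 and 6 in aged lists. The number was equal but the places were not. A stretch on chromosome 19 from 60769866 to 60770019 was listed in the 3 young lists, at a score of 3100 in each, and in no aged list. A stretch from 60763065 to 60763264 was listed in the 3 aged lists, also at 3100, and in young replicate 2 at 1710.

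The first of these was the only region of a translation factor gene that the 3 young lists held and the aged lists lacked. A further 5 Eif3a stretches were listed in all 6 lists, among them one at the 3′ end of the gene, from 60761116 to 60762304. Eif3c, a core subunit, had 3 peaks in each young list and 4, 5 and 6 in the aged lists, without overlap between the ages. Its stretch from 126558853 to 126559012 on chromosome 7 was listed in young replicate 1 and in all aged lists, each time at 3100 or more. With equal list lengths its counts were 3, 3 and 3 against 3, 3 and 5. Eif3b had 3, 2 and 3 peaks in young and 4, 3 and 2 in aged lists, and Eif3d had 1 in each list. Eif3j1 had 1, 2 and 1 peaks in young and 2 in each aged list. Its close copy Eif3j2, on chromosome 18, had 1 peak at 3100 in each list, and reads may have been split between the copies. Eif3k had a peak in 2 aged lists, at different places, and in 0 young lists, and Eif3l in 2 young and 0 aged lists, all with scores of 51.3 to 52.4, near the lower limit of the lists.

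The helicase eIF4A unwinds structure ahead of the ribosome, and its paralogs differed. Eif4a1, the main form in most cells, had 1 peak, in young replicate 3. Eif4a2, which is prominent in brain, had 0 peaks in each young list and 1 in each aged list, all at one stretch on chromosome 16 from 23112351 to 23113999, towards the 3′ end of the gene. Its scores were 158, 224 and 66.8, and with equal list lengths it kept 2 aged lists. Eif4a3, the helicase of the exon junction complex, had 0, 0 and 1 peaks in young and 1, 2 and 1 in aged lists. Its peak over the gene start, on chromosome 11 from 119299828 to 119300089, was listed in the 3 aged lists, with scores of 117, 156 and 183, and in no young list. The young peak lay further inside the gene, where aged replicate 2 had its other peak. With equal list lengths Eif4a3 had peaks in aged replicates 2 and 3 alone.

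Eif4b, a cofactor that stimulates eIF4A, had 5, 4 and 4 peaks in young and 6, 6 and 7 in aged lists, so the ages did not overlap. A core of 3 stretches on chromosome 15, from 102089866 to 102090195, from 102091397 to 102091494 and from 102092986 to 102093199, was listed at both ages in every list. The aged lists added peaks around this core. The stretch at the 3′ end, from 102095253 to 102097173, was listed in 1 young and 3 aged lists, and one from 102081976 to 102082113 in 2 aged lists. With equal list lengths the Eif4b counts were 5, 4 and 4 against 6, 5 and 6, so that the ages met at 5. The related cofactor Eif4h had 1, 1 and 2 peaks in young and 2 in each aged list.

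The cap-binding and scaffold proteins of eIF4F were marked at both ages. Eif4e, which binds the cap and limits initiation, had 1 peak in each young list and 2, 3 and 3 in the aged lists. The constant peak lay on chromosome 3 from 138550893 to 138551006, and the added ones had scores of 51.4 to 106. Every list had 1 peak in Eif4e once list lengths were equal. Eif4e2, a cap-binding repressor, had 2 peaks in each list apart from 3 in aged replicate 1, and Eif4e3 had 1 apart from 2 in aged replicate 3.

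Of the eIF4G scaffolds, Eif4g3 had the most peaks of any translation factor gene, with 8, 8 and 10 in young and 11, 12 and 10 in aged lists, and its span of 215 kb was the longest. Eif4g1, the main scaffold, had 3, 2 and 2 peaks in young and 5, 4 and 5 in aged lists. Its stretch on chromosome 16 from 20688731 to 20688865 had scores of 549 and 688 in aged replicates 1 and 3 and was in no other list. No stretch of Eif4g1 was listed in all 6 lists. With equal list lengths its counts were 3, 2 and 2 against 4, 1 and 4, which overlapped. Eif4g2, a scaffold that lacks the region that binds eIF4E, had 1 peak, in aged replicate 3. The genes for the inhibitors of eIF4E, Eif4ebp1, Eif4ebp2 and Eif4ebp3, had no peak in any list, and the eIF4E transporter Eif4enif1 had 2 peaks in aged replicate 1 only.

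Late initiation factors held some of the highest scores among the translation factor genes. Eif5b, the GTPase that joins the ribosomal subunits, had 7, 8 and 8 peaks in young and 8, 9 and 9 in aged lists. Of its 10 stretches, 7 were listed in all 6 lists, and 4 of these were at 3100 in every list. One further stretch, on chromosome 1 from 38033068 to 38033157, was listed in the 3 aged lists, with scores of 2679, 2428 and 2458, and in no young list. It lay between 2 stretches that were listed at both ages. This was the one stretch found in all aged and no young lists that belonged to a gene with peaks in all 6 lists. Eif5, which activates GTP hydrolysis on eIF2, had 2 peaks in each young list and 1, 1 and 3 in aged lists. Eif6, which keeps the large subunit apart, had 1 weak peak in 2 young and 1 aged list.

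**Figure D3:**
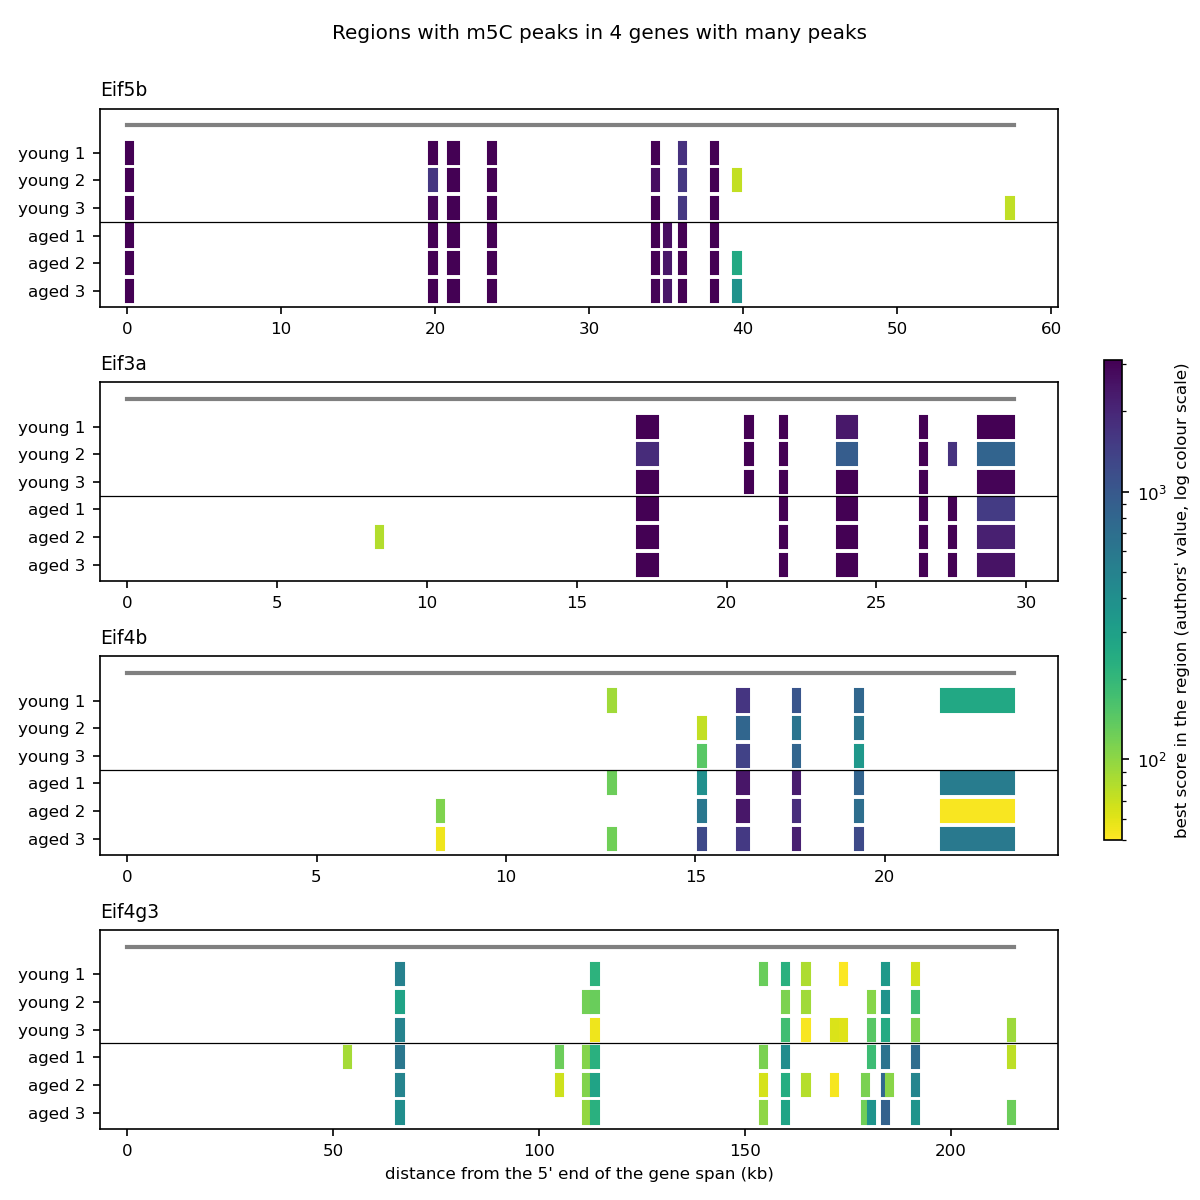
Each panel is 1 gene drawn from its 5′ end (horizontal axis, kb from the start of the span, grey bar), each row is 1 list, and each block is a stretch with a peak in that list, coloured by its best score on a log colour scale from 50 to 3100. Blocks show the whole merged stretch and narrow ones are widened to stay visible. Most blocks of Eif5b line up in all 6 lists, Eif3a has 1 column in the young lists alone, and Eif4b has more columns in the aged rows.

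Eif5a, which helps ribosomes through difficult peptide bonds and carries the modified residue hypusine, had 0 peaks in each young list and 2, 1 and 2 in the aged lists. The shared stretch lay at the 3′ end of the gene, on chromosome 11 from 69916712 to 69917341, with scores of 66.3, 2834 and 3100 in aged replicates 1, 2 and 3. Aged replicate 1 thus stood near the lower limit and the other aged lists near the upper one. With equal list lengths Eif5a had peaks in 2 aged lists and no young list. Its paralog Eif5a2 had no peak. Eif5a has processed pseudogenes, so its values are uncertain where reads could be placed at more than one copy.

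**Figure D4:**
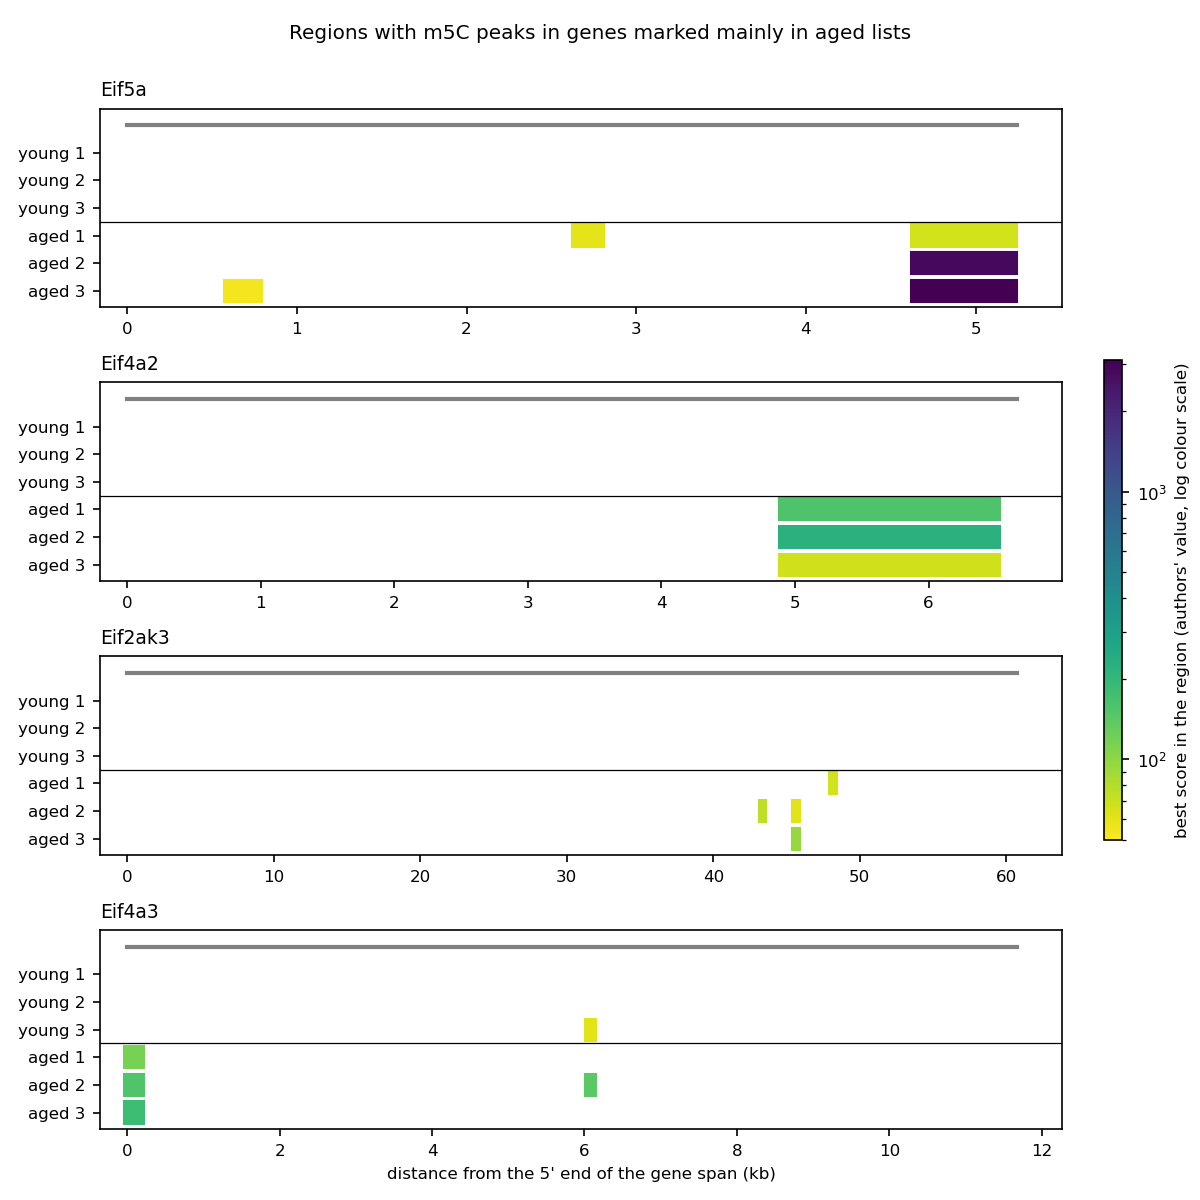
The same display for Eif5a, Eif4a2, Eif2ak3 and Eif4a3, with kb from the 5′ end of the span on the horizontal axis, lists as rows and score as colour on a log scale. Blocks at the 3′ end of Eif5a, at the 3′ part of Eif4a2 and at the start of Eif4a3 line up in the 3 aged lists, whereas those of Eif2ak3 are scattered.

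In the complex that brings charged tRNA to the ribosome, eEF1A with its exchange factors, peaks summed to 3, 2 and 2 in young and 4, 3 and 9 in aged lists over 6 genes. Eef1a1, the general carrier of charged tRNA and among the most abundant mRNAs of most cells, had no peak in any list. The treatment of reads that match several places is unknown, so this absence does not show an unmarked transcript. Eef1a2, the form of neurons and muscle, had 1 peak in each young list and 2, 1 and 5 in the aged lists. Its constant peak lay on chromosome 2 from 181155263 to 181155481. The 5 peaks of aged replicate 3 included 3 stretches listed nowhere else. The exchange subunit Eef1d had 1 peak in every list except for 2 in aged replicate 3. Eef1g, another subunit, had 1 peak in 1 young and 3 aged lists, at the 3′ end of the gene. Its score was 287 in young replicate 1 and 94.6, 60.3 and 64.0 in the aged lists. Only the young peak of Eef1g was left with equal list lengths. Eef1b2 had 1 peak, in aged replicate 3, with a score of 2425, and Eef1e1 none.

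Eef2, the translocase, had 1 peak in young replicates 1 and 3 and in each aged list, at the 3′ end of the gene on chromosome 10 from 81181889 to 81182509. Its scores were 157 and 261 in the young and 1772, 715 and 1206 in the aged lists. Eef2k, the kinase that inhibits eEF2, had no peak. The enzymes that methylate these factors gave few peaks: Eef2kmt, the methyltransferase of eEF2, had 1 peak in each list, with scores of 61.3, 97.8 and 77.0 in young and 314, 464 and 288 in aged lists, and Eef1akmt2 had peaks in 2 young and 3 aged lists. Eef1akmt1 had 1 peak in 1 aged list. No peak was found in Eef1akmt3, Eef1akmt4, the readthrough gene Eef1akmt4-ece2, Eef1aknmt, the copy Eif4a3l1, the oocyte form Eif4e1b or the selenocysteine factor Eefsec.

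A peak of at least 1 list covered all of the first 30 bases from an annotated start in 10 translation factor genes. These were among 53 with an annotated start window in RefSeq (build GRCm38.p6, the mm10 assembly). The same count over all genes was not computed. Many mRNAs of the translation machinery begin with a pyrimidine-rich tract, through which mTOR controls their use. The first 30 transcribed bases are shown for the starts covered in all lists, evenly at both ages, or in 2 or more lists of 1 age only, 5′ to 3′, with cytosines, the base that can carry m5C, in capitals. The first 4 were covered in aged lists alone: Eif4a3 (chr11:119300014-119300043, minus strand) in 3, Eef1a2 (chr2:181156986-181157015, minus) in 2, Eif1b (chr9:120492606-120492635, plus) in 2 and Eif4g1 (chr16:20672727-20672756, plus) in 2. Eif2b4 (chr5:31193110-31193139, minus) was covered in 2 young lists and no aged list. The last 3 were covered at both ages: Eif3b (chr5:140419305-140419334, plus) and Eif4e2 (chr1:87213939-87213968, plus) in all 6 lists, and Eif3f (chr7:108934415-108934444, plus) in 2 young and 2 aged lists. Other annotated Eif4e2 starts, at 87213911 and 87213914, were covered in 0 lists. A merged Eif5b stretch on chromosome 1, at 3100 in all 6 lists, began at 37998012. It lay just inside the annotated start at 37998010, which therefore did not count as covered.
Eif4a3: CCggttCCCgCCgCggCttgCagttgtCtt
Eef1a2: gttCtCgCtCaCtggttCtCtCCCtCgCtC
Eif1b: aaataCgCggCgCCggCCattttgtgCgag
Eif4g1: gCCCtCtgCgCCggtCaCgtggggCgCtgg
Eif2b4: gCCggaagttgtagtCCgCtggggaCtgaC
Eif3b: gaCttCtgggagtCggaagCagggCggCCg
Eif4e2: gatgggaCCCggtagagCggaagtCaCtCC
Eif3f: CtCtCtttCtCggCaagatggCttCtCCgg

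Cytosines numbered 11, 13, 8 and 11 of 30 in the 4 starts covered in aged lists alone, 7 in that of Eif2b4, and 7, 8 and 10 in the 3 covered at both ages. The other 2 genes were Eef1akmt2, covered in 2 young and 3 aged lists, and Eif5a, covered in aged replicate 3. Over the first 50 bases, cytosine made up 31.4% ± 8.0 (SD over 68 windows) in translation factor genes and 26.6% ± 9.30 in all 31396 windows. The motif CNGGG, linked to the mRNA methyltransferase NSUN2, was on the transcript strand of 33.8% of the translation factor windows and 30.9% of all windows, and on either strand of 57.4% and 46.7%. The motif CTCCA, linked to NSUN6, was on the transcript strand of 2.94% and 7.56%, and on either strand of 14.7% and 17.6%. The motifs were searched separately, and a match is a description of the letters.

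At the level of single stretches, the 527 gene-assigned peaks of the 6 lists merged into 154 regions on the strand of their gene. Of these, 45 had a peak in all 6 lists (29.2%, beside 17.4% of regions in all genes). A further 4 were found in all aged and no young lists (2.60%, beside 5.17%), in Eif4a2, Eif4a3, Eif5a and Eif5b, and 1 had the opposite pattern (0.649%, beside 0.6%), in Eif3a. More aged than young lists held the peak in 78 regions, and more young than aged lists in 18. Many regions rested on a single list, with 34 found in 1 aged list and 9 in 1 young list. No share over all regions was computed for the 78, 18, 34 and 9, and aged lists held 1.51 times as many peaks on average. By gene, more aged than young lists had a peak in 35.3% of the 51 genes with a peak, beside 43.2% of all genes with a peak. The reverse held for 5.88% and 16.8%. The count of aged-only regions was 5 to 11 when any 1 library was left out, and 1 with lists of equal length.

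In each young list the median score of the 45 regions of all 6 lists (446 to 621) was above that of the other regions (94.1 to 143). So it was in each aged list (787 to 927 above 104 to 123). A weak region can fall below the lowest listed score of 50 in some lists. This order therefore follows in part from how the 45 were chosen and is no separate result. All 45 regions had 1 peak per list, and in 34 of them the peak had identical ends in all 6 lists. Identical ends were found in 72.1% of the 3879 regions with 1 peak per list in all genes. Scores of 3100 or more were reached in at least 1 list by 22 regions of 6 genes: Eif3a, Eif3c, Eif3j2, Eif5, Eif5a and Eif5b. The share of all regions that reached this score was not computed. The 5 genes with most peaks, Eif4g3, Eif5b, Eif3a, Eif4b and Eif3c, held 38.3% of all peaks in translation factor genes. The genes and regions with a peak in all 6 lists form the upper right corner of the grid of young against aged lists.

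**Figure D5:**
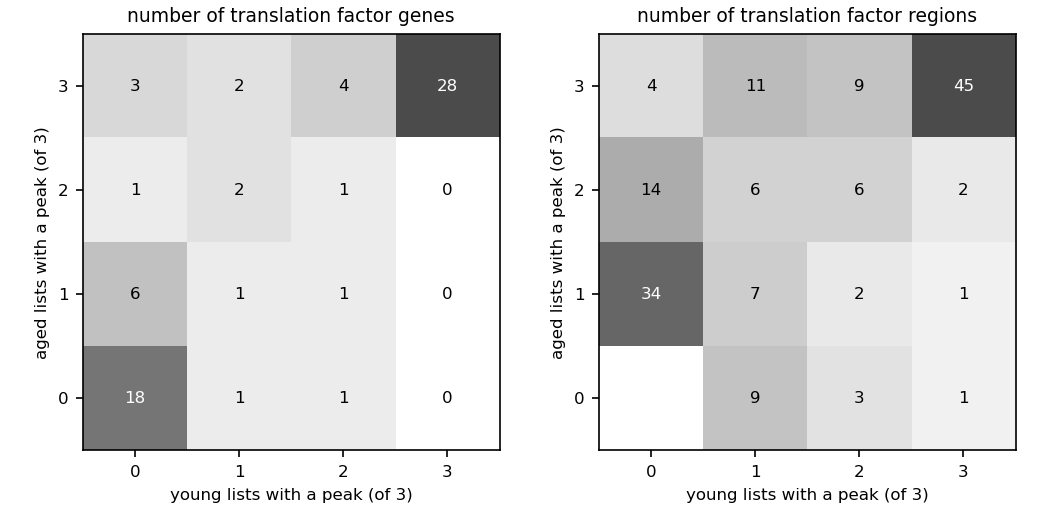
The number of translation factor genes (left) and of merged regions (right) by how many of the 3 young lists (horizontal axis) and of the 3 aged lists (vertical axis) held a peak; darker cells hold more. The 28 genes and 45 regions of all 6 lists fill the upper right corner, and 34 regions belong to 1 aged list alone.

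Other genes of the pathway, from lists of 78 genes found in the annotation, were looked up in the same way. A peak was present in 60 of them, in all 6 lists in 30, only in aged lists in 1 and only in young lists in none. These are 76.9% of the 78 genes, then 50% and 1.67% of the 60. For all genes on chromosomes 1 to 19 the values given above were 43.6%, 31.6% and 4.26%. The 78 genes were not limited to these chromosomes and include X-linked ones such as Fmr1 and Ddx3x. Genes with a peak numbered 42, 42 and 44 in young and 52, 46 and 48 in aged lists. The gene found only in aged lists was Rps6ka1, a ribosomal S6 kinase, with scores of 73.8, 87.4 and 54.2. Peaks in the 12 genes of mTORC1 and S6 kinase signalling summed to 6, 5 and 6 in young and 16, 12 and 11 in aged lists, and those in the 22 poly(A)-binding proteins and eIF4F regulators to 46, 50 and 45 and 69, 68 and 66. The aged to young ratio was 2.29 for the former and 1.44 for the latter, beside 1.51 for whole lists and 1.45 over all 78 genes.

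The 13 genes of the integrated stress response around eIF2 held 15, 12 and 16 peaks in young and 24, 23 and 18 in aged lists, a ratio of 1.51 that equals that of whole lists, and Atf4 and Ddit3, its transcription factors, had 1 peak in every list. The 12 genes of termination, recycling and ribosome rescue held 19, 17 and 21 and 23, 20 and 23 peaks, so that aged replicate 2 lay below young replicate 3. In the synthesis of hypusine and diphthamide, the modified residues of eIF5A and eEF2, 3 of 9 genes had a peak in any list, and Dhps and Dohh, which make hypusine, had none. Of the 10 mitochondrial translation factors 8 had a peak, with 4, 4 and 5 peaks in young and 7, 4 and 7 in aged lists.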

How the data were processed

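Peak lists of m5C immunoprecipitation over input, 1 per immunoprecipitated library, were used as the authors deposited them. Per the submitters' processing notes, cutadapt 1.9.3 and HISAT2 2.0.4 were among the tools and mm10 was the build. Peak names carry the word MACS. No source used here gives the caller's settings or the treatment of reads that match several places. The deposited score per peak is the authors' value, on a scale that no source states, and was used within a list only. Coordinates count from 1.

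A peak belonged to a gene if it overlapped the span (GRCm38.p6, RefSeq) by at least 1 base on the same strand. Strand came from RefSeq for 53 genes, from the gene's own unambiguous peaks for 12, and was unknown for 4 without peaks on either strand. End shares used spans of at least 2000 bases. Regions are unions of touching or overlapping peaks. Values per list were compared by two-sided exact permutation tests (Python 3.11.15), and counts of genes or regions were set beside the same counts over all genes, without a test. Functions were tested on simulated data. Exons, genome and protein sequences were not used here, so the planned comparison of paralogous proteins was not run. Genes with full values were those restricted to an age, holding a restricted region, with peak counts that did not overlap, or differing by 2 or more lists. The genes and lists were chosen with earlier results of these data known. Alternatives were list length, score minimum, overlap, strand, shared genes, region gap, end window and leaving out each library.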

Additional observations from a re-analysis of the deposited data

How the results depend on the processing

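Assignment by overlap of at least 50% of the peak, on either strand or without peaks shared between genes, joining peaks up to 100 bases apart, and end windows of 500 bases left the compared values and counts on the same side, except that the share of peaks no longer overlapped between ages with the 50% overlap or on either strand (exact permutation p = 0.1 each) and the Eef1g difference was 0 with the 50% overlap. List length and score minimum changed several. With equal lengths the aged minus young difference in genes with a peak was -1.33, that in the share of peaks 0.0429 percentage points and that in the first 1000 bases -0.12 points. Aged-only genes then numbered 0, genes with more peaks in every aged list 0, aged-only regions 1 and young-only regions 2. Among peaks at or above the median score of their list, aged-only genes numbered 1 (Eef2kmt) and genes with more peaks in every aged list 3. At scores of at least 100 the aged-only genes were 2, Eef2kmt and Eif4a3, none of the original 3, and the difference in median score percentile was 3.25. Eef1g turned to -0.333 under each of these 3 score settings. The cause was not tested.

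Eif2ak3, Eif4a2 and Eif5a cannot lose the aged-only call when 1 library is left out, so that setting says nothing of them. Leaving out 1 library at a time, the difference in genes with a peak was 5.83 to 8.83. Regions found at 1 age numbered 5 to 11 (aged) and 1 to 3 (young), genes likewise 3 to 4 (aged) and 0 to 1 (young), and genes with more peaks in every list of 1 age 8 to 10 (aged) and 0 to 1 (young). The end-window differences ran from -0.782 to 1.62 points at the start (reversed at -0.0483 without young replicate 2 and -0.782 without aged replicate 3) and from -0.626 to 1.25 points at the end (reversed at -0.626 without young replicate 2 and -0.100 without aged replicate 1). A relaxed rule of 2 lists on 1 side makes such counts larger. No paired analysis was possible because replicate numbers do not tie young to aged libraries and inputs have no list of their own. Depth is unknown, so a missing peak does not show a missing mark.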
